A study of Mus musculus with 20 samples.

Results

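The set described here is 37 mouse genes for enzymes that break down amino acids, measured in liver. The members were taken by exact gene symbol from a list, with no expression value in the rule, though the list was chosen with earlier results of these data known. All 37 were found among the 21768 gene symbols of the deposited table. They were placed in 11 groups by the amino acid or reaction they act on. All 37 also passed the filter on low counts that left 14067 genes for testing.

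The liver is the main site where most amino acids are taken apart: aminotransferases move the amino group, and dedicated enzyme chains oxidise the remaining carbon skeleton to intermediates of the citric acid cycle, to glucose precursors or to ketone bodies. Many of these genes are switched on in hepatocytes by fasting signals, glucocorticoids and protein intake, and several are known to vary over the day. Tryptophan and histidine have dedicated breakdown chains in liver, the former also feeding the synthesis of NAD.

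The livers came from wild-type mice. Exposed mice drank water with 100 mg/L CdCl2, cadmium chloride, for 3 or 9 months, and control mice of the same 2 times had no cadmium named in their labels. Of the 20 samples of the study, on m6A marking of mRNA, the 10 libraries named input in their titles (in such an assay, RNA set aside before the antibody step) were used, and the other 10 were not analysed here. There were 2 control and 3 exposed input libraries at each time, numbered 2 and 3 in the 3-month controls, 1 and 2 in the 9-month controls, and 1 to 3 in the exposed groups. Sex, strain and age at the start are not stated in the labels, nor whether the libraries of a group came from separate animals, so p-values measure the spread between these samples, which may be technical.

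The input libraries held 3958164 to 8912898 counts over genes and detected 12730 to 16519 genes. Levels are given as CPM, counts per 1000000 after TMM scaling, and 3 counts corresponded to 0.352 to 0.663 CPM depending on the library. The tissue label was met by hepatocyte markers: 9 of 10 listed symbols were matched, with a summed level of 80325 to 121092 CPM, and Alb, the albumin gene, was at 30564 to 68212 CPM in every library. Of 12 pancreas markers 11 were matched, and their summed level was highest in 9-month control 2 (9146 CPM), followed by 9-month cadmium 1 (1789 CPM) and 3-month control 3 (247 CPM); elsewhere it was 8.40 to 33.5 CPM. Both 3-month controls stood apart from the rest: their median Pearson correlation with the other 9 libraries was 0.824 and 0.825 over 8179 genes, against 0.900 to 0.937 for the other 8 libraries. The correlation between these 2 controls was 0.79. The spans of 8 members (Hgd, Acmsd, Afmid, Sds, Dmgdh, Csad, Bckdhb and Mccc1) overlap another gene of the table, so their values may hold some of its reads. In such bulk RNA, fewer cells of a type and less RNA per cell cannot be told apart.

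Upstream sequences are shown for 5 members whose levels varied together across libraries in the results that follow: Got1 and Aass, which shared 1 extreme library, and Uroc1, Ftcd and Haao, which were low in that library. Promoters were taken from RefSeq on GRCm38.p6 and were found for 30 of the 37 members; none was found for Kynu, Sds, Sdsl, Gpt, Cth, Cdo1 and Dbt. The windows hold the 250 bases before the annotated start, at chr19:43524606-43524855 (minus strand) for Got1, chr6:23132987-23133236 (minus strand) for Aass, chr6:90333039-90333288 (plus strand) for Uroc1, chr10:76575398-76575647 (plus strand) for Ftcd and chr17:83846791-83847040 (minus strand) for Haao. The counted transcript started 50 bases before the annotated start for Uroc1 and 153 bases before it for Haao. The last 50 bases of the Uroc1 window and the last 153 of the Haao window thus lie in the span of the counted transcript. Each sequence runs 5′ to 3′ on the strand of the gene, in lower case, with matches to the searched motifs in capitals.
Got1: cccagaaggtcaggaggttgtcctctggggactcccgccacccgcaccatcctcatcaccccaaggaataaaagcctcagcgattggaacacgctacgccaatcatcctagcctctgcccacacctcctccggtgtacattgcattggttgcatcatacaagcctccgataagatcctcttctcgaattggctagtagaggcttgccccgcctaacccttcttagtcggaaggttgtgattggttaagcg
Aass: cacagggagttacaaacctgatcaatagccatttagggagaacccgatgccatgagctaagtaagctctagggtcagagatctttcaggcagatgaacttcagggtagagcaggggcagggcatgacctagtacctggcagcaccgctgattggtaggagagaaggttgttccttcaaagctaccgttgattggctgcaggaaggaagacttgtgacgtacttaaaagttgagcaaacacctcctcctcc
Uroc1: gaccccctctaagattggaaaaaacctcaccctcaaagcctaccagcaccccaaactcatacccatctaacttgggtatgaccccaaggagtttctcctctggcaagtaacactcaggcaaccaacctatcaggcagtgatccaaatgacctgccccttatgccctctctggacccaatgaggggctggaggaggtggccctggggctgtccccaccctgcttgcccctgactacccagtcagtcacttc
Ftcd: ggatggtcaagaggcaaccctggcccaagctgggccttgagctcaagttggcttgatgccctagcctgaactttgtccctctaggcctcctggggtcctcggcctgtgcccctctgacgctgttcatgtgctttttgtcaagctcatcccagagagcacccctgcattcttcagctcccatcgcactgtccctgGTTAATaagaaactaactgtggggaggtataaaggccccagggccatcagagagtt
Haao: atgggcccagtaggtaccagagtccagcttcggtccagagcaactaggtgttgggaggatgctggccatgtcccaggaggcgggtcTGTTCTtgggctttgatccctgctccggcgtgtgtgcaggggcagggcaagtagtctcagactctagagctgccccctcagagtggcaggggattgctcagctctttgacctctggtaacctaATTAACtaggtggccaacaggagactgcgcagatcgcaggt
Exact letters were searched on both strands. The HNF1 hexamer GTTAAT was found in the windows of 2 of 30 members, Ftcd and Haao, and in 6.43% of the 32851 promoters of the table. It lay 56 bases before the start for Ftcd. For Haao it lay on the other strand, 41 bases before the annotated start and so within the span of the counted transcript. The glucocorticoid receptor hexamer AGAACA was found upstream of 3 members, Agxt, Bckdhb and Haao, and in 16.1% of all promoters. The E-box CACGTG was found upstream of Mccc2 alone, against 6.02% of all promoters. No member window held the D-box TTATGNAA (3.07% of all promoters), the C/EBP letters TTGCGCAA (0.164%) or the HNF4 letters CAAAGTCCA (0.384%). No pair of these motifs overlapped in the windows shown, and the Got1, Aass and Uroc1 windows held none of the 6.

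Between genes, levels were compared per transcript length, with the deposited TPM of the counted transcript. Tdo2, for the dioxygenase that opens the tryptophan ring, was highest, with a median of 943 (658 to 2267) TPM over the 10 libraries, lowest and highest in brackets. Hpd, for the dioxygenase that acts on the keto acid of tyrosine, followed at 487 (406 to 938) TPM, then Cdo1, for cysteine dioxygenase, at 346 (164 to 654) TPM. Haao came next at 289.6 (91.6 to 397) TPM and then Agxt at 248 (184 to 1056) TPM. The ranges of neighbours among these 5 overlapped. The lowest members were Mccc2 at 7.92 (5.67 to 11.7) TPM, Sdsl at 4.06 (0.801 to 19.0) TPM and Acmsd at 2.11 (0.0517 to 39.5) TPM.

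**Figure D1:**
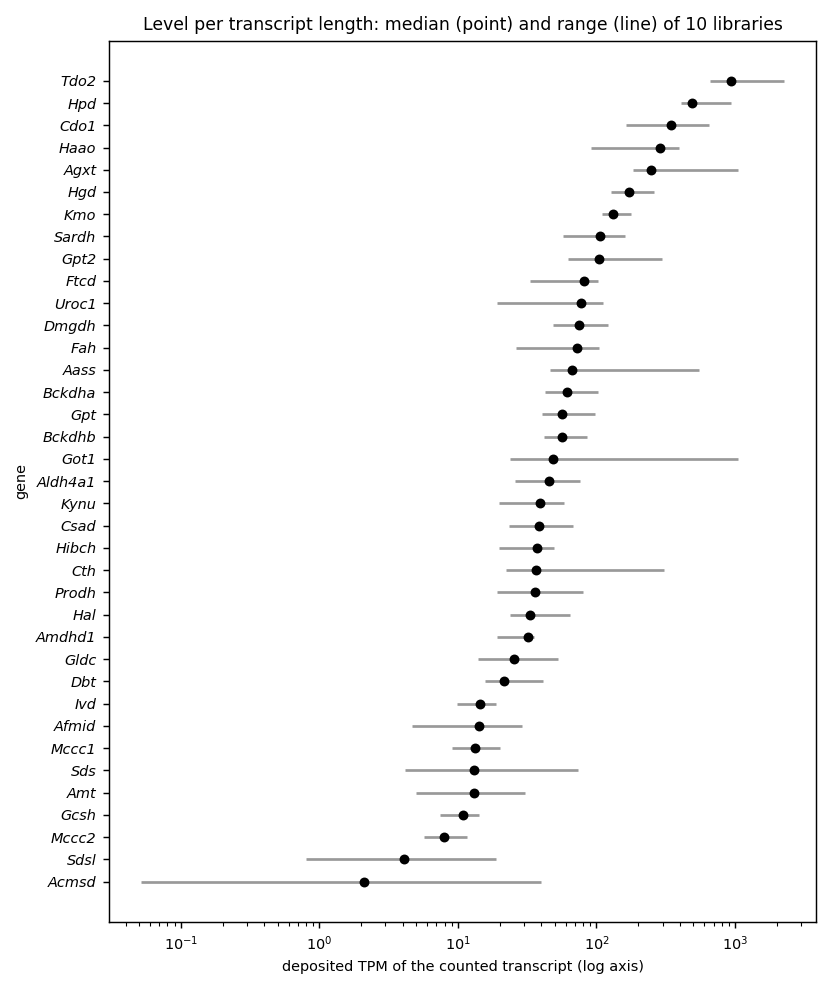
Deposited TPM of the counted transcript of each of the 37 members on a log axis, with the median of the 10 libraries as a point and the lowest to highest library as a line. Tdo2 leads at a median of 943 TPM and Acmsd is lowest at 2.11 TPM with the widest range.

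At 3 months the exposed livers had higher means of the histidine enzymes Uroc1 and Ftcd and lower means of Cth, Aass, Got1, Tdo2 and Dbt than the controls, but no member passed the test. By edgeR's quasi-likelihood test 0 of 37 members had an adjusted p under 0.05, where 0.0498% of all tested genes did, and the smallest adjusted p of a member was 0.117. At an unadjusted p under 0.05 there were 15 members, 4 higher and 11 lower in exposed livers, against 14.5% of all tested genes, and DESeq2 called 4 members (Aass, Cth, Ftcd and Uroc1). DESeq2 called 3.45% of all genes to which it gave an adjusted p (465 genes), and limma voom called 0 members and 2 genes in all. The median log2 fold change of the members was -0.28, and that of all tested genes was 0.01. Exposed and control libraries did not overlap for 4 members that were higher in exposed livers (Uroc1, Ftcd, Csad and Ivd; 13.9% of all tested genes) and for 10 that were lower (Tdo2, Kmo, Kynu, Sdsl, Gldc, Dmgdh, Cth, Cdo1, Dbt and Aass; 11.9% of all tested genes). At 9 months 0 members passed by edgeR, DESeq2 or limma voom, against 0% of all tested genes by edgeR, and every member had an adjusted p of 1. There 2 members, Gldc and Csad, had an unadjusted p under 0.05, both lower, against 2.25% of all tested genes. The 9-month groups did not overlap for 3 members higher in exposed livers (Kmo, Sds and Sdsl; 10.3% of all tested genes) and 3 lower (Hal, Gldc and Amt; 11.8% of all tested genes). The median log2 fold change was -0.04 over the members and 0.01 over all tested genes, and that of the members came to 0.22 without the 2 libraries with the most pancreas-marker RNA. These are 9-month control 2 and 9-month cadmium 1, so the fit without them, also used below, holds 1 control at 9 months. Pancreas RNA cannot be told apart there from the choice of control.

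**Figure D2:**
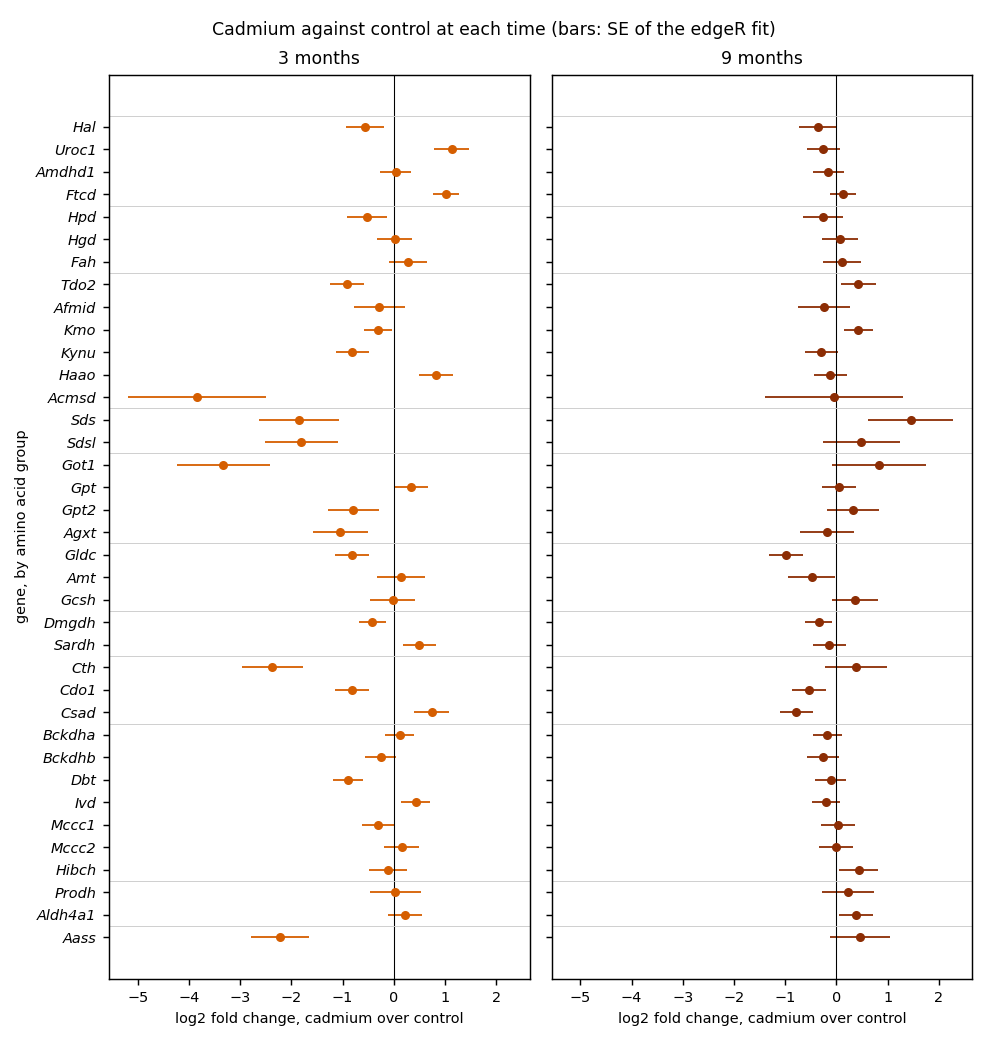
Log2 fold change of cadmium over control at 3 months (left) and 9 months (right) for the 37 members, grouped by amino acid, with bars for the SE of the edgeR fit over 10 libraries. The 3-month values run from -3.33 (Got1) to 1.13 (Uroc1), apart from Acmsd, which lies lower. Acmsd was under 3 counts in 3-month control 2. The 9-month values run from -0.98 (Gldc) to 1.45 (Sds).

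Histidine is broken down by Hal, which removes ammonia to give urocanate, then by Uroc1 (urocanase), Amdhd1 (imidazolonepropionase) and Ftcd, which passes the formimino group to tetrahydrofolate. Ftcd stood at 144 and 121 CPM in the 3-month controls, 301, 248 and 261 CPM in the 3-month exposed livers, 285 and 309 CPM in the 9-month controls, with 306, 356 and 316 CPM in the 9-month exposed livers. Both 3-month controls lay below all other 8 libraries, which were close to one another. The 3-month means were 270.0 ± 27.6 (SD, n = 3) in exposed and 133 ± 15.8 CPM (SD, n = 2) in control livers, and the log2 fold change of 1.03 ± 0.26 (SE) did not pass the test (adjusted p = 0.117, edgeR). Uroc1 was at 194 and 90.2 CPM in the 3-month controls, 270.3, 306 and 357 CPM in the exposed livers of that time, 393 and 479 CPM in the 9-month controls, with 354, 427 and 316 CPM in the 9-month exposed livers. Again the 3-month controls were the lowest libraries. Its log2 fold change at 3 months was 1.13 ± 0.34 (adjusted p = 0.172, edgeR). At 9 months the groups overlapped for both genes, with log2 fold changes of 0.13 ± 0.25 for Ftcd and -0.25 ± 0.32 for Uroc1. Hal did not follow them: it was at 83.3 and 243 CPM in the 3-month controls, against 97.6 to 131 CPM in the exposed livers of that time. At 9 months Hal was at 125 and 163 CPM in controls and 101, 111 and 123 CPM in exposed livers, which were all lower. Amdhd1 was at 62.4 to 105 CPM over the 10 libraries, and its groups overlapped at both times.

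Tyrosine is degraded by Hpd, then by Hgd, which opens the ring of homogentisate, and Fah, which splits fumarylacetoacetate. No tyrosine member separated the groups at either time. Hpd, the most abundant of them, was at 827 and 1725 CPM in the 3-month controls, 927, 979.8 and 757 CPM in exposed livers, 712 and 1407 CPM in the 9-month controls, with 728, 1220.1 and 707 CPM in exposed livers. The 2 controls of a time lay far apart, with the exposed livers between or close to them. Its log2 fold changes were -0.52 ± 0.38 at 3 months (adjusted p = 0.559, edgeR) and -0.26 ± 0.39 at 9 months (adjusted p = 1, edgeR), the latter coming to 0.42 without the 2 libraries with the most pancreas-marker RNA. Hgd ran from 288 to 599.6 CPM and Fah from 52.5 to 214 CPM, the lowest Fah value being that of 3-month control 2.

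In the tryptophan chain Tdo2 makes N-formylkynurenine, Afmid (formamidase) releases kynurenine, Kmo hydroxylates it, Kynu (kynureninase) cuts it and Haao opens the ring of 3-hydroxyanthranilate towards NAD. Acmsd diverts the product of Haao away from NAD. The abundant first enzyme and Haao ran in opposite directions across the libraries. Tdo2 was at 2622 and 5005 CPM in the 3-month controls, 2246, 1998 and 1807 CPM in the 3-month exposed livers, 1633 and 1324 CPM in the 9-month controls, with 1614, 2684 and 1667 CPM in the 9-month exposed livers. The 3-month groups did not overlap, and 3-month control 3 lay far above all others. With a log2 fold change of -0.92 ± 0.33, Tdo2 did not pass at 3 months (adjusted p = 0.246, edgeR), nor at 9 months with 0.43 ± 0.34. Haao was at 367 and 183 CPM in the 3-month controls, 363, 519 and 574 CPM in exposed livers, 585 and 723 CPM in the 9-month controls, with 626, 549.9 and 626 CPM in exposed livers. Here 3-month control 3 was the lowest library. Across the 10 libraries the Pearson correlation of Tdo2 with Haao on the log2(CPM + 1) scale was -0.93, and -0.78 without 3-month control 3, as a description of libraries that share their groups.

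Kynu was at 225 and 241 CPM in the 3-month controls, against 167, 155 and 77.6 CPM in exposed livers of that time. The groups did not overlap, and the log2 fold change was about the same with either control left out (-0.85 without control 2, -0.75 without control 3). At 9 months Kynu was at 179.8 and 157 CPM in controls and 158, 130.2 and 124 CPM in exposed livers, which overlapped. Kmo was at 504 and 486 CPM in the 3-month controls, against 456, 383 and 356 CPM in exposed livers, which were all lower. At 9 months the order was turned: Kmo was at 357 and 336 CPM in controls and at 416, 599 and 384 CPM in exposed livers (log2 fold change 0.43 ± 0.28, adjusted p = 1, edgeR). The difference between the 3-month and 9-month effects on Kmo was 0.74 ± 0.39 on the log2 scale and did not pass (adjusted p = 0.573, edgeR). Afmid ran from 16.6 to 87.1 CPM with overlapping groups at both times. Acmsd was at 123 CPM in 3-month control 3 and at 0.157 to 14.7 CPM in the other 9, of which 3-month control 2 (0.422 CPM) and 9-month cadmium 1 were under 3 counts.

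Sds, serine dehydratase, turns serine and threonine into keto acids for glucose synthesis. Its level was 7.38 and 141 CPM in the 3-month controls, 20.1, 22.9 and 19.1 CPM in exposed livers, 20.8 and 17.9 CPM in the 9-month controls, with 37.7, 97.0 and 23.6 CPM in exposed livers. The highest and the lowest library were both 3-month controls, so that the exposed livers lay between them. At 9 months all exposed livers were above both controls, mainly through cadmium 2. The log2 fold change was -1.85 ± 0.78 at 3 months (adjusted p = 0.306, edgeR) and 1.45 ± 0.83 at 9 months (adjusted p = 1, edgeR), so that neither passed. The span of Sds overlaps that of Plbd2 in the table, and with the strand setting of the counting not given in the sources used here, reads of the 2 genes may be mixed. Sdsl, the related Sds-like enzyme gene, was low: 17.1 and 32.6 CPM in the 3-month controls, 1.31 to 12.6 CPM in the exposed livers of that time, and 4.20 and 5.04 CPM in controls against 8.79, 5.53 and 5.17 CPM in exposed livers at 9 months.

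Aminotransferases pass amino groups between amino acids and keto acids: Got1 is the cytosolic aspartate enzyme, Gpt and Gpt2 are alanine enzymes, and Agxt converts glyoxylate to glycine. Got1 had the widest range of the abundant members, with 164 and 2942 CPM in the 3-month controls, 229, 118 and 117 CPM in exposed livers, 114 and 81.8 CPM in the 9-month controls, with 64.8, 389 and 68.4 CPM in exposed livers. One library, 3-month control 3, held nearly all of the 3-month difference, and 9-month cadmium 2 was the next highest. The 3-month log2 fold change was -3.33 ± 0.91 (adjusted p = 0.139, edgeR), with overlapping groups, and -0.08 without 3-month control 3. Agxt was at 395 and 2213 CPM in the 3-month controls, 929, 560.4 and 411 CPM in exposed livers, 607 and 414 CPM in the 9-month controls, with 377, 429.6 and 543 CPM in exposed livers. The same control was the highest, but 9-month cadmium 2 was not raised. Agxt had a log2 fold change of -1.04 ± 0.53 at 3 months (adjusted p = 0.384, edgeR) and -0.18 ± 0.54 at 9 months. Gpt2 was at 282 and 1452 CPM in the 3-month controls, against 471, 445 and 589 CPM in exposed livers, with 340.3 and 555 CPM in controls and 478, 767 and 441 CPM in exposed livers at 9 months. The related Gpt did not share this: it ran from 90.9 to 226 CPM, with 3-month control 3 at 109 CPM.

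The glycine cleavage system of mitochondria consists of Gldc, which removes the carboxyl group of glycine, Amt, which takes over the methylene carbon, and the lipoyl carrier Gcsh. Gldc was the one member of the set whose exposed libraries lay below all controls of the same time at both 3 and 9 months. Its levels were 222 and 127 CPM in the 3-month controls against 115, 115 and 68.3 CPM in exposed livers, and 183 and 247 CPM in the 9-month controls against 129, 87.5 and 111 CPM in exposed livers. At 3 months the gap was narrow between control 3 and exposed livers 1 and 2, while at 9 months it was wider. Means were 99.3 ± 26.9 (SD, n = 3) against 174 ± 67.5 CPM (SD, n = 2) at 3 months and 109 ± 20.7 (SD, n = 3) against 215 ± 45.6 CPM (SD, n = 2) at 9 months. The log2 fold changes were -0.81 ± 0.33 (adjusted p = 0.294) and -0.98 ± 0.33 (adjusted p = 1) by edgeR, so neither passed. Of all 14067 tested genes 196, or 1.39%, were lower without overlap at both times, and 193, or 1.37%, were higher. Amt was at 23.6 and 8.91 CPM in the 3-month controls, against 10.7 to 22.8 CPM in exposed livers, which overlapped, and at 42.7 and 47.5 CPM against 40.2, 19.4 and 37.6 CPM at 9 months, where all exposed livers were lower. Gcsh ran from 11.1 to 25.4 CPM with overlapping groups.

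Dmgdh and Sardh take the methyl groups off dimethylglycine and sarcosine, which arise from choline. Dmgdh was at 317 and 303 CPM in the 3-month controls, against 211, 227 and 256 CPM in exposed livers, which were all lower. At 9 months it was at 284 and 441 CPM in controls and 274, 295 and 288 CPM in exposed livers, which overlapped. The log2 fold change was -0.34 ± 0.26 (adjusted p = 1, edgeR), and 0.030 without the same pancreas-rich pair of libraries. Sardh ran from 331 to 901 CPM, with 3-month control 2 lowest and 9-month control 2 highest. Its log2 fold changes were 0.50 ± 0.32 at 3 months (adjusted p = 0.501, edgeR) and -0.14 ± 0.32 at 9 months, where it was 0.29 without that pair.

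Among the sulfur amino acid genes, Cth makes cysteine from cystathionine, Cdo1 oxidises cysteine to its sulfinate, and Csad takes the sulfinate on towards taurine. Cth was at 129 and 741 CPM in the 3-month controls, 83.2, 82.0 and 87.7 CPM in exposed livers, 49.3 and 96.5 CPM in the 9-month controls, with 82.4, 158 and 45.7 CPM in exposed livers. The 3 exposed livers at 3 months were nearly equal and below both controls, of which control 3 was far higher. Its log2 fold change of -2.37 ± 0.59 shared the smallest adjusted p of the set with Ftcd (0.117, edgeR), and was -0.61 (adjusted p = 0.436) without 3-month control 3. Cdo1 was at 706 and 1059.7 CPM in the 3-month controls, against 364, 539 and 607 CPM in exposed livers, all lower, with a log2 fold change of -0.81 ± 0.34 (adjusted p = 0.300, edgeR). At 9 months Cdo1 was at 610.4 and 1231 CPM and 658, 609 and 637 CPM, and its log2 fold change of -0.54 ± 0.34 came to 0.02 without the 2 libraries with the most pancreas-marker RNA. Csad had opposite signs at the 2 times. It was at 142 and 119 CPM in the 3-month controls, against 176, 197 and 279 CPM in exposed livers, all higher, but at 154 and 278 CPM in the 9-month controls, with 103, 118 and 157 CPM in exposed livers. At 9 months exposed liver 3 lay just above control 1. The log2 fold changes of Csad were 0.74 ± 0.34 (adjusted p = 0.335) and -0.78 ± 0.32 (adjusted p = 1), and their difference of -1.52 ± 0.47 did not pass (adjusted p = 0.443, edgeR). The span of Csad overlaps that of Zfp740 in the table.

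Leucine, isoleucine and valine lose their carboxyl group through the branched-chain keto acid dehydrogenase, whose subunits come from Bckdha, Bckdhb and Dbt. Ivd and the carboxylase pair Mccc1 and Mccc2 serve leucine, and Hibch serves valine. Of the 3 subunit genes, Dbt separated the groups at 3 months, with 169 and 184 CPM in controls and 89.7, 78.6 and 116 CPM in exposed livers. At 9 months Dbt was at 70.5 and 97.5 CPM in controls and 76.0, 99.2 and 58.7 CPM in exposed livers, so that both 3-month controls were the highest of all 10 libraries. Its log2 fold change at 3 months was -0.90 ± 0.30 (adjusted p = 0.211, edgeR), and it stayed near that with either control left out (-0.95 and -0.83). Bckdha and Bckdhb did not follow: Bckdha ran from 94.5 to 222 CPM and Bckdhb from 84.0 to 156 CPM. The log2 fold changes of Bckdha were 0.11 ± 0.28 at 3 months and -0.18 ± 0.28 at 9 months (0.047 without the pancreas-rich pair). Ivd was at 48.1 and 48.8 CPM in the 3-month controls, against 50.8, 76.1 and 68.2 CPM in exposed livers, all higher though by little. Mccc1 (39.7 to 79.7 CPM), Mccc2 (15.2 to 28.0 CPM) and Hibch (47.0 to 121 CPM) had overlapping groups at both times.

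Proline is oxidised by Prodh and then Aldh4a1, and lysine by Aass, which couples it to 2-oxoglutarate and splits the product. Aass was at 456 and 2762 CPM in the 3-month controls, 374, 309 and 351 CPM in exposed livers, 228 and 273 CPM in the 9-month controls, with 263, 575 and 196 CPM in exposed livers. Both 3-month controls were above the exposed livers, control 3 by far the more. With a log2 fold change of -2.22 ± 0.57 Aass did not pass at 3 months (adjusted p = 0.121, edgeR), nor at 9 months with 0.46 ± 0.58 (adjusted p = 1, edgeR). Prodh ran from 55.03 to 246 CPM, with 9-month cadmium 2 highest. Aldh4a1 was at 109 to 337 CPM, with log2 fold changes of 0.22 ± 0.33 and 0.38 ± 0.33, and overlapping groups at both times.

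**Figure D3:**
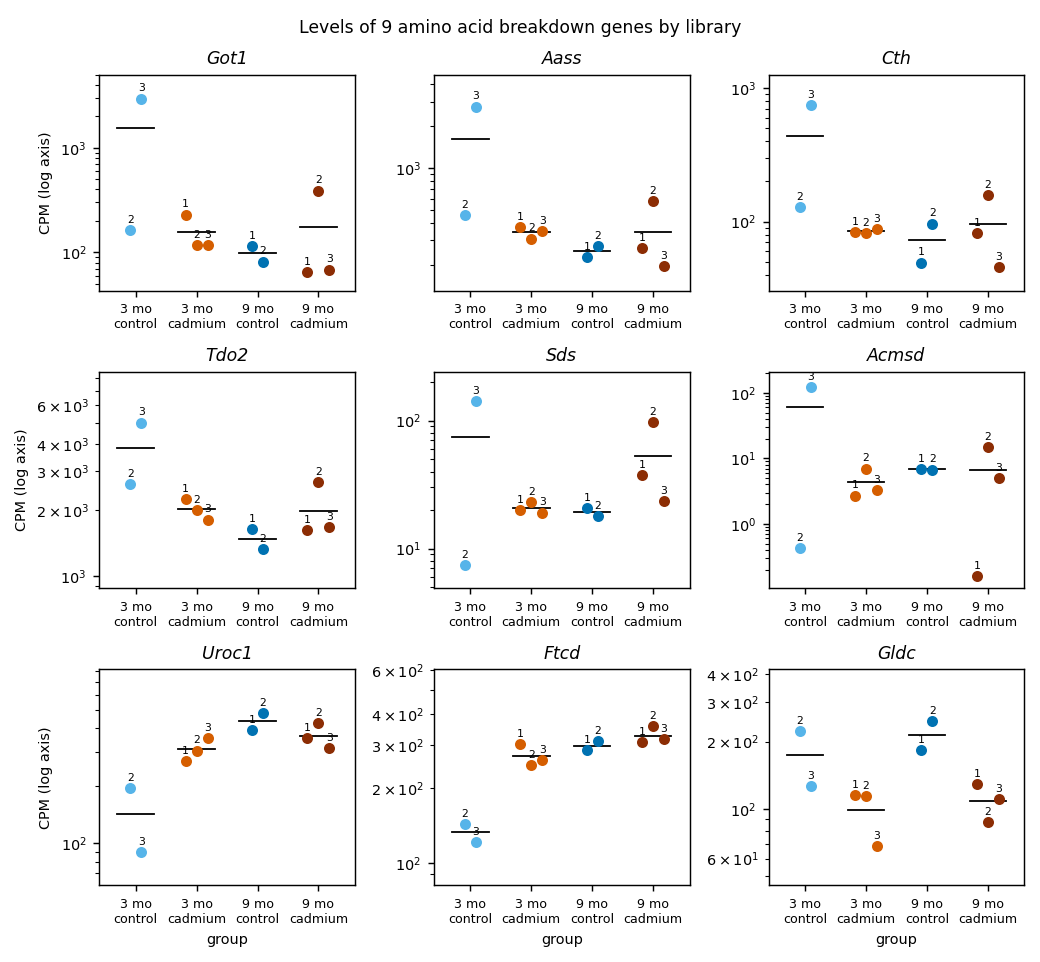
CPM of 9 members by library on log axes, one panel a gene, with points numbered by replicate, coloured by group, and a line at the group mean. In Got1, Aass, Cth, Tdo2, Sds and Acmsd the point for 3-month control 3 is the highest of the 10, in Uroc1 and Ftcd it is the lowest, and in Gldc all exposed points lie below the controls of their time.

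Much of the 3-month difference rested on 3-month control 3. It was the highest of the 10 libraries for 14 of the 37 members, against 15.98% of all tested genes, and the lowest for 5, against 15.1%. Got1 in this library was 25.1 times the median of the other 9, Acmsd 24.8 times, Aass 8.93 times and Cth 8.91 times. Sds (6.78 times), Sdsl (5.90 times), Agxt (5.15 times), Gpt2 (3.08 times), Tdo2 (2.77 times), Hal (2.18 times), Hpd (2.09 times) and Dbt (2.05 times) were also at least 2 times that median. Uroc1 was at 0.255 times, Haao at 0.319 times, Amt at 0.377 times and Ftcd at 0.404 times. For 7 of the 14 members the next highest library was 9-month cadmium 2: Tdo2, Acmsd, Sds, Got1, Gpt2, Cth and Aass. The other 3-month control was the lowest of the 10 for 11 members (34.2% of all tested genes) and the highest for 0 (20.7% of all tested genes). Among the 7545 tested genes with a mean of at least 10 CPM, that control was lowest for 22.8% and highest for 25.2%. In the same genes 3-month control 3 was highest for 18.2% and lowest for 18.6%. All members but Sdsl had a mean at or above that level. The highest library was 9-month control 2, the one with the most pancreas-marker RNA, for 12 members (11.3% of all tested genes), and 9-month cadmium 2 for 8 (6.92%). Beside these values, 3-month control 3 had the largest count over genes, its hepatocyte markers summed to 90324 CPM, its Kupffer cell and macrophage markers to 178 CPM, and its listed periportal genes to 6339 CPM against 3059 CPM in control 2. Within the hepatocyte total of 3-month control 3, Alb, Apob and Ttr were at their lowest of the 10 libraries. Cps1, Fgb and Ahsg were at their highest, and the other matched markers lay between. Periportal genes were highest in 9-month cadmium 2, at 7635 CPM. Of these 9 genes, 6 had a positive 3-month log2 fold change of cadmium over control and 3 a negative one (median 0.23). The total of 11 listed pericentral genes spanned 5356 to 7794 CPM across libraries. Neither 3-month control 3 (6712 CPM) nor 9-month cadmium 2 (7118 CPM) was at an end of that span. The part of these measures in the member values was not tested.

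**Figure D4:**
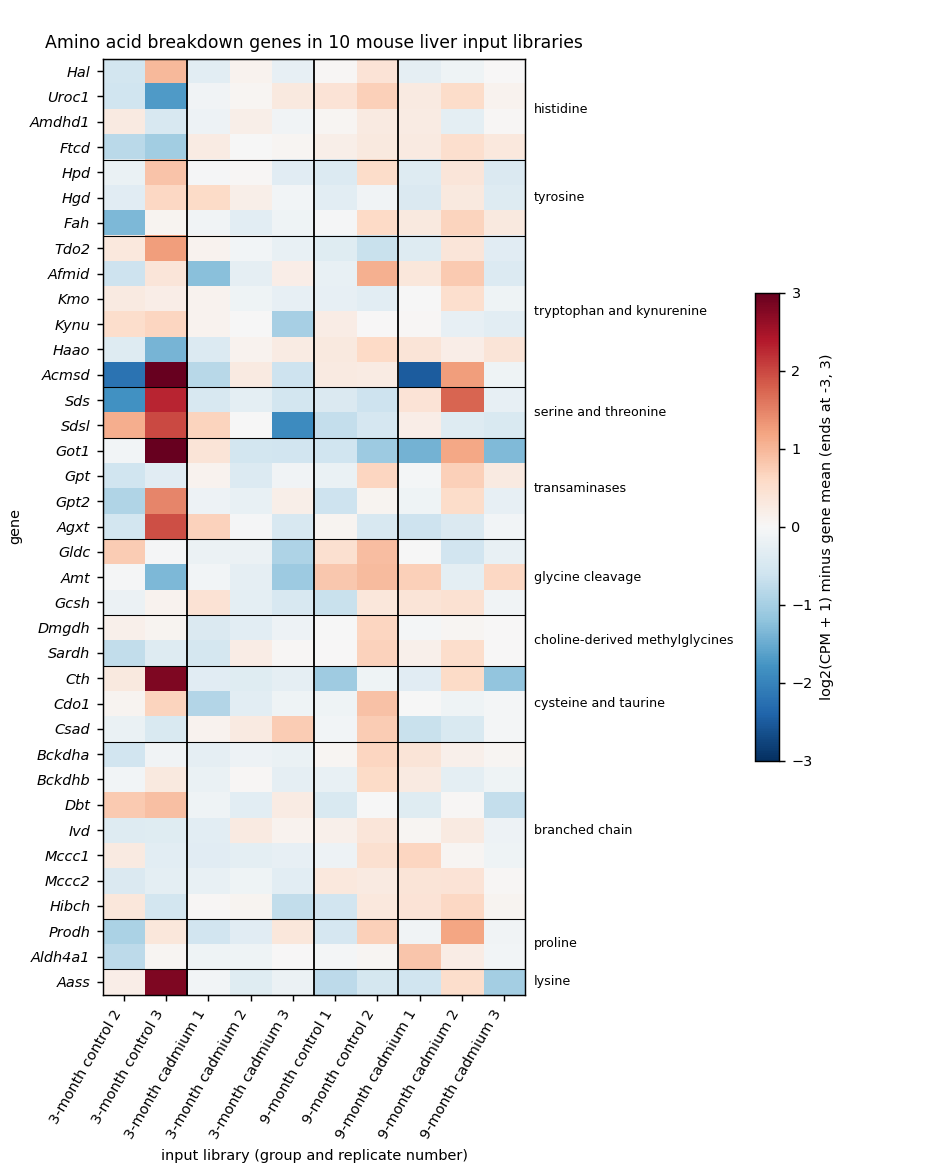
Log2(CPM + 1) of each member minus its mean over the 10 input libraries (colour, from -3 to 3), with members in rows by amino acid group and libraries in columns by group. The column of 3-month control 3 holds the highest value for 14 members, and that of 9-month control 2 for 12.

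Leaving out one 3-month control at a time gave different members. Without control 2, edgeR called 12 members (Aass, Acmsd, Agxt, Cth, Ftcd, Got1, Gpt2, Haao, Hal, Sds, Tdo2 and Uroc1), where 4.62% of all genes tested in that fit were called. Without control 3 it called 2 (Fah and Gldc), where 8.16% were called, and no member was called in both. Such a fit takes the spread of the 1 remaining control from the other groups. The median log2 fold change of the members was -0.38 without control 2 and 0.24 without control 3. Directions were the same in both for 20 of the 37 members, 8 higher and 12 lower, and opposite for 17, while 54.6% of 14033 genes kept theirs. Signs were opposite for Sds (-2.76 without control 2 and 1.49 without control 3), Agxt (-1.80 and 0.68) and Gpt2 (-1.53 and 0.84), and for Acmsd, whose fitted values are not printed because control 2 was under 3 counts. Aass kept its direction but went from -2.998 to -0.40. Ftcd was 1.16 (adjusted p = 0.0371) and 0.91 (adjusted p = 0.0671) by edgeR, and Uroc1 1.79 and 0.68. Gldc was -0.35 without control 2 and -1.16 (adjusted p = 0.0446, edgeR) without control 3.

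**Figure D5:**
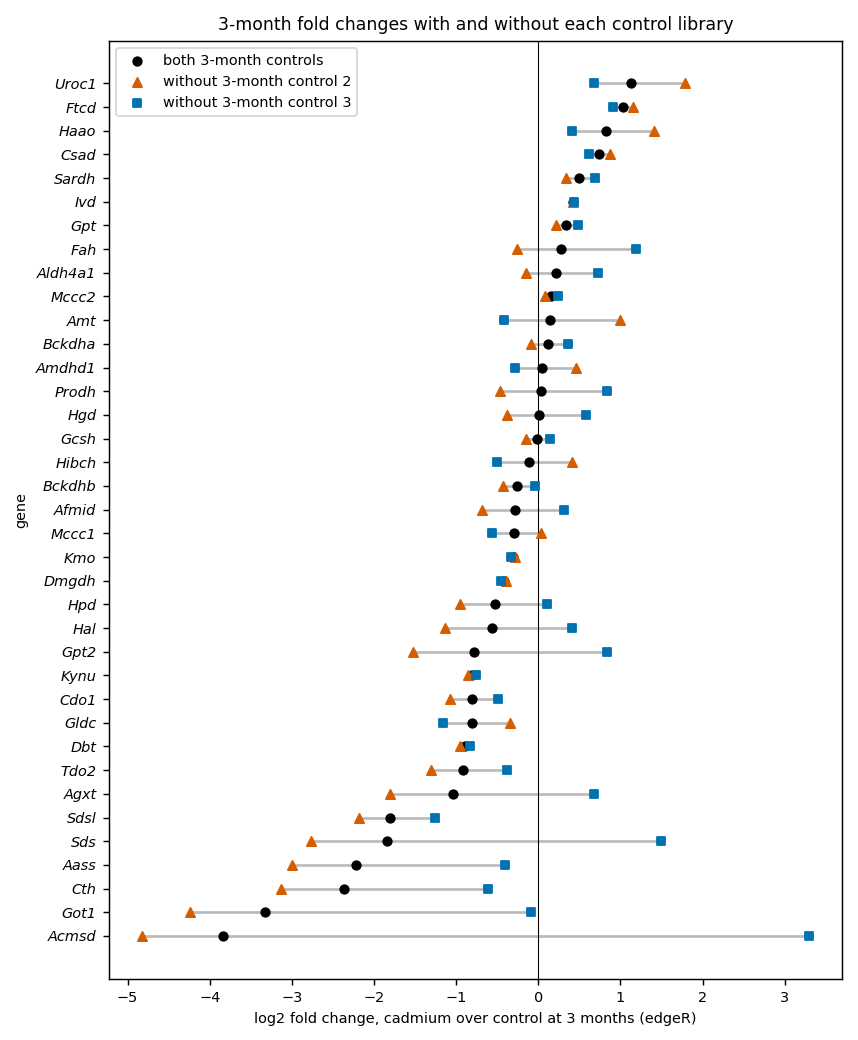
Log2 fold change of cadmium over control at 3 months for each member with both controls (black), without control 2 (triangles) and without control 3 (squares). The markers coincide for Ivd, Kmo, Dmgdh, Kynu and Dbt and lie far apart for Sds and Got1, and for Acmsd, where control 2 was under 3 counts.

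The effects at 9 and 3 months were also set against each other. No member passed (0 of 37 by edgeR, DESeq2 and limma voom, against 0% of all tested genes by edgeR). An unadjusted p under 0.05 was found for 9 of the 37 members, a larger share than the 9.42% of all tested genes. The members with the smallest p were Csad (-1.52 ± 0.47), Aass (2.68 ± 0.82) and Cth (2.75 ± 0.86), all with an adjusted p of 0.443 by edgeR. Without 3-month control 3 the value of Aass was 0.86 and that of Cth 1.00. Comparisons over time used the same 3-month controls. In control livers 1 of 37 members, Uroc1, was called at 9 against 3 months by edgeR, against 1.89% of all tested genes, and 15 members had an unadjusted p under 0.05, against 20.1% of all tested genes. Uroc1 rose by 1.62 ± 0.37 on the log2 scale (adjusted p = 0.0458, edgeR), higher in both 9-month controls than in both 3-month controls. Ftcd, at 1.16 ± 0.28 (adjusted p = 0.05001, edgeR), and Aass, at -2.68 ± 0.67 (adjusted p = 0.0554, edgeR), stayed just outside the threshold. The Uroc1 call was lost with counts summed over transcripts, in limma voom, with a replicate block, with the control groups fitted alone, and without the 2 libraries with the most pancreas-marker RNA. It was also lost in each of the 8 fits that left out 1 library other than a 3-month control, with adjusted p from 0.0644 to 0.284 by edgeR. In exposed livers 0 of 37 members differed between 9 and 3 months by edgeR (0% of all tested genes), 1 had an unadjusted p under 0.05 (4.95% of all tested genes), and DESeq2 and limma voom called 0 members. There Csad was at -0.79 ± 0.30 (adjusted p = 0.980, edgeR), Amt at 0.87 ± 0.42 and Sds at 1.35 ± 0.72.

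Members of one chain were little more alike across libraries than members of different chains. Over the 10 libraries the median Pearson correlation of log2(CPM + 1) was 0.23 for the 60 pairs within a group and 0.16 for the 606 pairs between groups, and for 5 of the 37 members the most similar member was of the same group. With each member set beside its most similar member, Cth with Aass was highest (0.98, and 0.91 without 3-month control 3). Next were Got1 with Aass (0.97 and 0.87), Uroc1 with Haao (0.95 and 0.84) and Tdo2 with Got1 (0.95 and 0.84). Sardh with Ivd followed (0.93 in both). Cdo1 and Dmgdh correlated at 0.88, and at 0.95 without that library. All these values share the libraries and their groups. The median SD of the members on this scale was 0.63 in the 3-month controls, 0.25 in the 3-month exposed livers, 0.33 in the 9-month controls and 0.31 in the 9-month exposed livers. For all tested genes these were 0.61, 0.43, 0.28 and 0.39.

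Other genes of amino acid breakdown, from a further list, had no call by edgeR in either cadmium comparison. Of 53 listed, 50 were tested, and 0 passed at 3 or at 9 months by edgeR or limma voom, while DESeq2 called Got2 and Shmt2 at 3 months and 0 at 9 months. Their median log2 fold change at 3 months was 0.19, and 12 had an unadjusted p under 0.05, 11 of them higher in exposed livers, against 14.5% of all tested genes. Groups did not overlap for 14 that were higher (13.9% of all tested genes) and 2 that were lower (11.9%). At 9 months the median was -0.03, and 0 had an unadjusted p under 0.05, against 2.25% of all tested genes. Between 9 and 3 months in controls edgeR called 2 of the 50, both higher at 9 months (1.89% of all tested genes), where limma voom called 0 genes. These were Prodh2, for hydroxyproline dehydrogenase, at 1.65 ± 0.34 on the log2 scale (adjusted p = 0.0355, edgeR), and Gcat, for an enzyme of threonine breakdown, at 1.81 ± 0.39 (adjusted p = 0.0409, edgeR), both named after their values were seen. Got2, the mitochondrial counterpart of Got1, was at 241 and 230.4 CPM in the 3-month controls, 484, 476 and 446 CPM in exposed livers, 440.1 and 592 CPM in the 9-month controls, with 521, 478 and 495 CPM in exposed livers. Both 3-month controls were below all other libraries, as for Ftcd and Uroc1, and unlike Got1 the 2 controls were nearly equal. The log2 fold change of Got2 at 3 months was 0.99 ± 0.26 (adjusted p = 0.124, edgeR). Shmt2, the mitochondrial serine hydroxymethyltransferase gene, was at 35.6 and 37.1 CPM in the 3-month controls, against 70.8, 93.7 and 56.7 CPM in exposed livers, with a log2 fold change of 1.02 ± 0.29 (adjusted p = 0.146, edgeR). Tat, the tyrosine aminotransferase that precedes Hpd, was at 1364 and 10039 CPM in the 3-month controls, 1093, 1148 and 1459 CPM in exposed livers, 1097 and 1493 CPM in the 9-month controls, with 1836, 6109 and 1757 CPM in exposed livers. Its highest libraries were 3-month control 3 and 9-month cadmium 2, the same as for Got1, Cth and Aass. The list as a whole did not share this for 3-month control 3. That library was the highest for 4 of the 50 tested genes, against 15.98% of all tested genes. The highest was 9-month cadmium 2 for 7 of the 50, against 6.92%. At 9 months Tat had a log2 fold change of 1.32 ± 0.69 and Aadat, an aminotransferase of kynurenine and of 2-aminoadipate, one of 0.69 ± 0.39, each with an adjusted p of 1 by edgeR.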

How the data were processed

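RNA of mouse liver was measured in 20 libraries, of which the 10 input libraries were analysed. Per the submitters' processing notes, bcl2fastq, TopHat2 2.0.13 and MACS2 2.1.0.20151222 were used, and 3 builds are listed with no role (hg19, mm10 and rn6). Not given in the sources used here are the counting tool, its use of strand and the annotation. The deposited table gives raw read counts per RefSeq transcript, per the file headers. It also gives TPM per transcript made by the authors, per the file headers, used only to compare levels between genes. A further 12 columns of values, from 6 libraries, match no sample and were not used.

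Each gene took the counts of its transcript with the largest total in the 10 libraries. Of the members 14 had 1 transcript, and for another 14 the second transcript had over 90% of the count of the first, so that isoforms could not be separated. Counts were filtered (filterByExpr), scaled by TMM and fitted over all 10 libraries in 4 groups with edgeR 4.0.16 (R 4.3.3), with limma 3.58.1 and DESeq2 1.42.0 as alternatives and Python 3.11.15 for the rest. Tests were two-sided, adjusted by Benjamini-Hochberg over all tested genes, with a threshold of 0.05. The SE is the log2 fold change over the square root of the F statistic. CPM were given a pseudocount of 1 before log2 for correlations and SDs. The fit was tested on simulated data. A library's 3 counts are the limit under which a value near 0 was not read.

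The members and lists were chosen with earlier results of these data known. All members were named with levels. Fold changes were given by rule for the 6 members with the smallest unadjusted p in each cadmium comparison (3 in the others) and the most abundant member of each group, and from the other lists for 2 genes each. Values for further members were given after they were seen. Alternatives were DESeq2, its size factors, other filters on low counts, limma voom with library weights, transcripts summed, a replicate block, the 2 groups compared alone, each library left out, and the 2 libraries with the most pancreas-marker RNA left out.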

Additional observations from a re-analysis of the deposited data

Results flagged for a closer look

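For Kmo and Sdsl the exposed libraries lay wholly below the controls at 3 months and wholly above them at 9 months, as did the groups of 3.06% of all tested genes in one order or the other. Kmo was at 356 to 456 CPM in exposed livers and 486 to 504 CPM in controls at 3 months, and at 384 to 599 CPM and 336 to 357 CPM at 9 months. The difference of its effects was 0.74 ± 0.39 (SE) on the log2 scale, with an adjusted p of 0.573 by edgeR. Sdsl was at 1.31 to 12.6 CPM in exposed livers and 17.1 to 32.6 CPM in controls at 3 months, and at 5.17 to 8.79 CPM and 4.20 to 5.04 CPM at 9 months. Its difference was 2.29 ± 1.04, with an adjusted p of 0.526 by edgeR, so that neither difference passed the test. Groups of 2 or 3 libraries are too small for a search for single stray samples.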

How the results depend on the processing

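Of 719 values of named members under the alternatives, 659 kept their direction and side of the threshold, 31 passed only under the alternative, 13 no longer passed and 16 turned direction. At 3 months genes called numbered 7 by edgeR, 465 by DESeq2, 502 without a filter on low counts, 11 with summed transcripts, 2 by limma voom, 4 without the 2 pancreas-rich libraries (9-month control 2 and 9-month cadmium 1), 0 with only the 2 groups compared, and 3 to 1247 with one library left out. Members called numbered 0, 4 by DESeq2, 6 without the filter, and 0 to 12 with a library left out. With a library left out the member median ran from -0.38 to 0.24, Hpd from -0.95 to 0.11, Sds from -2.76 to 1.49, Agxt from -1.80 to 0.68, Bckdha from -0.093 to 0.37 and Aldh4a1 from -0.15 to 0.72. At 9 months genes called numbered 0 by edgeR, 7 by DESeq2, 76 without the filter, 3 by limma voom, 1 with only the 2 groups and 0 to 1 with a library left out. Without the 2 pancreas-rich libraries, with 1 control left at 9 months, the 9-month member median was 0.22, Cdo1 0.018, Dmgdh 0.030, Hpd 0.42, Sardh 0.29 and Bckdha 0.047. With one library left out at 9 months, Cdo1 ran from -0.94 to 0.045, Hpd from -0.66 to 0.30, Agxt from -0.44 to 0.13, Sardh from -0.43 to 0.25, Bckdha from -0.44 to 0.15 and Aass from -0.13 to 0.73. For the difference of effects, genes called numbered 0 by edgeR, 39 by DESeq2, 208 without the filter (5 members) and 0 to 587 with a library left out (0 to 8 members), with a member median of 0.43 without the pancreas-rich libraries and -0.25 to 0.46 with a library left out. For time in controls, genes called numbered 266 by edgeR, 1220 by DESeq2 (9 members), 1073 without the filter (12 members), 435 at 5 CPM in 2 libraries (2 members), 0 with summed transcripts, limma voom or only the 2 groups (0 members), 1 without the pancreas-rich libraries (0 members, median -0.30), and 1 to 2339 with a library left out (0 to 12 members, median -0.30 to 0.41). For time in exposed livers, genes called numbered 0 by edgeR, 11 by DESeq2, 96 without the filter (1 member), 3 by limma voom, 4 with only the 2 groups and 0 to 11 with a library left out. The cause of these changes was not tested.

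Whether the replicate numbers pair the samples is not stated in the labels. Deviations from group means of same-numbered libraries correlated at 0.04 and -0.01 at 3 months and -0.06 and 0.05 at 9 months. With 2 controls a time, the deviations of the controls mirror each other, so these values cannot decide the question. With the replicate block, genes called numbered 3 at 3 months, 1 at 9 months, 0 for time in controls (0 members) and 3 for time in exposed livers. With 2 controls a time, and with 3 counts at 0.352 to 0.663 CPM, small differences were not detectable, and Acmsd was under 3 counts in 2 libraries.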

Other observations

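Transcription factor and hormone receptor genes that act on amino acid breakdown (11 listed, 11 tested) had 0 calls at either time by edgeR or limma voom, with median log2 fold changes of -0.16 at 3 months and 0.18 at 9 months. An unadjusted p under 0.05 was found for 4 at 3 months (14.5% of all tested genes) and 0 at 9 months (2.25%), and DESeq2 called Cebpa and Gcgr among its 465 genes at 3 months. Gcgr, the glucagon receptor gene, was at 167 and 113 CPM in the 3-month controls, 324, 302 and 309 CPM in exposed livers, 307 and 284 CPM in the 9-month controls, with 226, 279.6 and 329 CPM in exposed livers. Like Ftcd and Uroc1 it was lowest in both 3-month controls, with a log2 fold change of 1.15 ± 0.28 (adjusted p = 0.117, edgeR). Cebpa, a hepatocyte transcription factor gene, was at 288 and 441 CPM in controls and 914, 841 and 771 CPM in exposed livers at 3 months (1.21 ± 0.32, adjusted p = 0.129, edgeR). At 9 months Klf15, a glucocorticoid-induced factor gene, had a log2 fold change of 0.77 ± 0.39 and Ppara, the fatty acid receptor gene, one of 0.43 ± 0.32, both with an adjusted p of 1 by edgeR.

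Of 12 amino acid transporter genes, all tested, 0 were called at either time by edgeR or limma voom, with median log2 fold changes of -0.49 at 3 months and 0.21 at 9 months. At 3 months 1 had an unadjusted p under 0.05, against the same 14.5% of all tested genes, with 0 at 9 months, and DESeq2 called Slc16a10 at 3 months. For 7 of them 3-month control 3 was the highest library (15.98% of all tested genes), and for 3 it was 9-month cadmium 2 (6.92%). Slc7a2, for a cationic amino acid carrier, was at 638 and 3026 CPM in the 3-month controls, 733, 704 and 1311 CPM in exposed livers, 412 and 385 CPM in the 9-month controls, with 542, 1624 and 639.6 CPM in exposed livers. Its highest libraries were those of Got1, Cth and Aass, and its 9-month log2 fold change was 1.23 ± 0.60 (adjusted p = 1, edgeR). Slc16a10, for an aromatic amino acid carrier, was at 106 and 904 CPM in the 3-month controls, against 115, 101 and 149 CPM in exposed livers (-2.05 ± 0.58, adjusted p = 0.149, edgeR). Slc25a22, for a mitochondrial glutamate carrier, had a log2 fold change of -1.16 ± 0.61 at 3 months (adjusted p = 0.400, edgeR), and Slc38a4 one of 0.61 ± 0.35 at 9 months (adjusted p = 1, edgeR).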
